A study of Mus musculus with 10 samples.

Results

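Cyclin D1 and the genes that act with it in G1 control were examined in whole kidneys of young mice. The genes are the D cyclins Ccnd1, Ccnd2 and Ccnd3, the kinases Cdk4 and Cdk6, the inhibitors Cdkn1b, Cdkn1c and Cdkn2c, the retinoblastoma gene Rb1 and the E cyclin Ccne1. They were chosen by their function with the difference of Ccnd1 between genotypes already known, so the values of all of them are a description and carry no test. Of the 10 genes, 9 were in the deposited table of 13837 genes, and all 9 were among the 13197 genes with enough counts to be tested. Ccne1 was not analysed here.

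The kidneys came from 5 mice labelled RagC S74N (KI/+) and 5 mice labelled RagC S74N (+/+), all 3 months old. The KI/+ mice carry 1 edited copy of Rragc in every tissue, in which codon 74 of RagC reads asparagine in place of serine, and 1 normal copy. RagC is a small GTPase that helps to recruit the kinase complex mTORC1 to the lysosome when nutrients are plentiful, and the substitution fixes it in the form that activates mTORC1. The study used C57BL/6 mice of both sexes, and the labels do not give the sex of these 10 animals or a treatment. Because the edit is present in the whole body from conception, the kidney was not the only organ that carried it.

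Passage through G1 depends on D cyclins, which mitogens and growth signals induce and which bind Cdk4 and Cdk6. The resulting kinases phosphorylate the retinoblastoma protein, which then releases E2F factors, and these switch on cyclin E and the genes of DNA replication. The INK4 proteins, of which p18 is encoded by Cdkn2c, bind Cdk4 and Cdk6 alone, whereas p27 (Cdkn1b) and p57 (Cdkn1c) act on a wider set of cyclin-Cdk complexes. Most tubular cells of a healthy adult kidney are quiescent and return to the cycle after injury, and cyclin D1 transcripts are nevertheless readily measured in adult tubules.

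Libraries were made from the 3′ end of polyadenylated transcripts (QuantSeq), so that counts do not grow with transcript length. Whether different genes are captured equally well was not tested, so levels compared between genes, such as the D cyclin shares, are approximate. The unit is the normalized count, which is the number of reads of a gene divided by the size factor of the library. Reads assigned to genes numbered from 6501552 to 7996087 per library. The level of Rragc, which carries the edit, was 285 ± 42.3 (SD, n = 5) in +/+ and 216 ± 23.6 (SD, n = 5) in KI/+ kidneys. The change was -0.40 on the log2 scale (SE 0.12, limma adjusted p = 0.0678), and 4 KI/+ mice lay below every +/+ mouse. DESeq2 called Rragc lower (DESeq2 adjusted p = 0.0312), whereas edgeR and the other limma settings did not. Reads from the 3′ end do not cover the edited codon, so the level of Rragc does not check the genotype. The library codes form 2 runs. Those ending in 38 to 40 belong to 2 +/+ mice and 1 KI/+ mouse, and those ending in 53 to 66 to 3 +/+ and 4 KI/+ mice. KI/+ replicate 5 stood apart from the other KI/+ mice in several marker sums, given with the tubule segments, and values that move most with it are also given without it.

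Before the expression values, the promoters of both cyclin D-dependent kinases are shown, because they differ in how often they hold CACGTG, the core that the mTORC1-regulated factors TFEB and TFE3 and other E-box proteins can bind. Each stretch runs from 250 bases before to 50 bases after the start of the gene, from RefSeq on GRCm38.p6, whereas the expression values use GRCm39, and coordinates were left on their own build. Capitals mark CACGTG. The Cdk4 stretch is chr10:127063285-127063584 and the Cdk6 stretch chr5:3343643-3343942, both on the plus strand.
Cdk4: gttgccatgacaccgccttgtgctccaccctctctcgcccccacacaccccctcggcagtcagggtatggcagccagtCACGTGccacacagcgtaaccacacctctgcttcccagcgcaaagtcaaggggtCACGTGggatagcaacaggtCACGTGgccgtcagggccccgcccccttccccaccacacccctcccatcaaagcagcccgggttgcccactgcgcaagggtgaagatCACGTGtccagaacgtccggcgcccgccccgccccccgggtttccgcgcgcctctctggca
Cdk6: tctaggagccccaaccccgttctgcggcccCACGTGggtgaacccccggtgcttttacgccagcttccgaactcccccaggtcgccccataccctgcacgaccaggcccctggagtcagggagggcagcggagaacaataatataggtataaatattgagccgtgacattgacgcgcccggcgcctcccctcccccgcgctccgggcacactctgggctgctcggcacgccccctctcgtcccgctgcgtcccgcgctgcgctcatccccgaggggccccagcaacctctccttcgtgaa
Cdk4 held 4 copies, whose first bases lie 172, 118, 98 and 11 bases before the start, and Cdk6 held 1 copy, 220 bases before it. At least 1 copy was found in 7.15% of the 32851 promoters of the same length, and 8 of these promoters held 4 or more. Promoters were found for 6 of the 10 genes (8 promoters in all), and were not found for Ccnd1, Ccnd2, Cdkn1c and Rb1. Among the others, 1 of the 2 Cdkn2c promoters held CACGTG once, with its first base 35 bases after the start, and neither of the 2 Ccnd3 promoters, nor those of Cdkn1b and Ccne1, held it. Also searched on both strands were TGACGTCA (in 1.79% of all promoters), TGANTCA (7.81%) and the E2F forms TTTGGCGC, TTTCCCGC, TTTGCCGC and TTTCGCGC (2.26% for any of them), none of which lay in the 8 promoters. No searched form contains another. A match is a description of letters and not of binding.

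Ccnd1 was the G1 gene that differed most between genotypes, and its transcript in KI/+ kidneys was at 29.8% of the +/+ level. The +/+ mice had normalized counts of 798, 745, 1145, 1025 and 1011 (replicates 1 to 5), from 838 to 1010 reads each. The KI/+ mice had 243, 300.1, 277, 264 and 325, from 256 to 334 reads each. The highest KI/+ mouse lay far below the lowest +/+ mouse, so that the 2 genotypes shared no range. The means were 945 ± 168 (SD, n = 5) and 282 ± 31.9 (SD, n = 5), and the log2 fold change was -1.73 (standard error 0.12, 95% interval -1.98 to -1.48). Of the 13197 genes tested, 33 had a lower log2 fold change than Ccnd1, which was 34th from the lowest. Because reads come from a whole kidney, a smaller number of cells with the transcript and less transcript per cell cannot be told apart.

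The fall of Ccnd1 was present in both runs of library codes. Among codes ending in 38 to 40, the +/+ mice had 798 and 745 and the KI/+ mouse had 243. Among codes ending in 53 to 66, the +/+ mice lay between 1011 and 1145 and the KI/+ mice between 264 and 325, with a log2 fold change of -1.86. In each genotype, the mice of the first run had the lowest Ccnd1 values. Leaving out each mouse in turn gave log2 fold changes between -1.81 and -1.66.

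**Figure D1:**
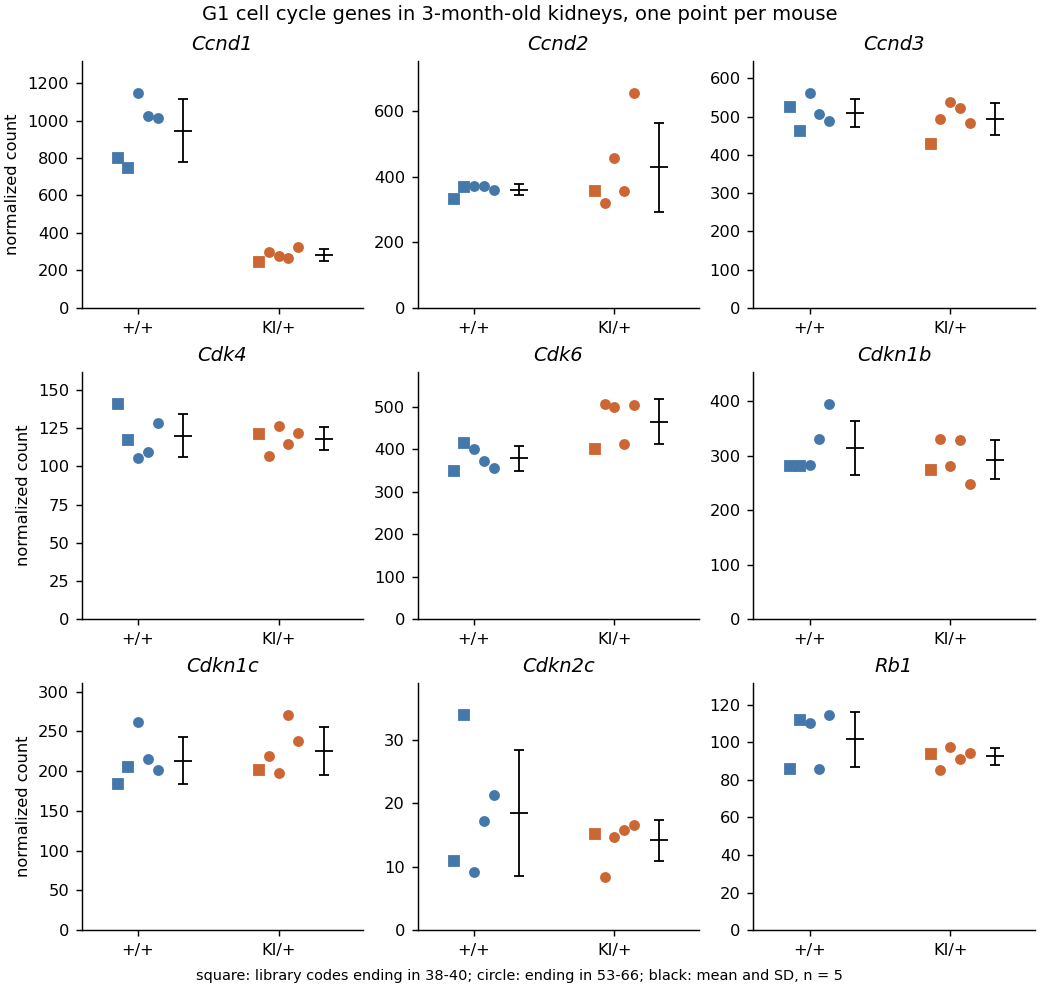
Normalized counts (vertical axes, starting at 0) of the 9 measured G1 genes in +/+ (blue) and KI/+ (orange) kidneys, with 1 point per mouse, squares for library codes ending in 38 to 40, circles for those ending in 53 to 66, and the mean and SD of 5 mice in black. Ccnd1 is the gene whose points do not overlap, from 745 to 1145 in +/+ and from 243 to 325 in KI/+ mice.

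The other D cyclins did not follow Ccnd1. For Ccnd2, the +/+ mice had 330, 368, 372, 371 and 358 normalized counts. The KI/+ mice had 355, 321, 458.2, 356 and 654. Replicates 3 and 5 of KI/+ lay above every +/+ mouse and the other 3 lay within or below their range. The means were 360 ± 17.4 (SD, n = 5) and 429 ± 136 (SD, n = 5), and the log2 fold change of 0.20 (standard error 0.15, 95% interval -0.11 to 0.51) fell to 0.04 without KI/+ replicate 5. Ccnd2 is the D cyclin best known from haematopoietic and endocrine cells, and Ccnd3 the one most widely expressed in differentiated tissues. For Ccnd3, the +/+ mice had 527, 462, 561, 508 and 490, and the KI/+ mice 430, 495, 538, 523 and 485. The genotypes overlapped almost completely, with means of 510 ± 37.3 (SD, n = 5) and 494 ± 41.8 (SD, n = 5) and a log2 fold change of -0.05 (standard error 0.09, 95% interval -0.23 to 0.14).

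The makeup of the D cyclin transcripts therefore differed. Ccnd1 made up 51.8% ± 3.71 (SD, n = 5) of the summed D cyclin counts in +/+ kidneys, with mice between 47.3% and 55.1%, and 23.5% ± 2.02 (SD, n = 5) in KI/+ kidneys, with mice between 21.8% and 26.9%. The share of Ccnd3 was 28.2% ± 2.32 (SD, n = 5) in +/+ and 41.5% ± 4.94 (SD, n = 5) in KI/+ kidneys. The share of Ccnd2 was 19.99% ± 2.04 (SD, n = 5) and 35.0% ± 6.11 (SD, n = 5). Ccnd1 was the most abundant D cyclin transcript in all 5 +/+ kidneys and the least abundant in all 5 KI/+ kidneys. The summed level was 1814 ± 201 (SD, n = 5) in +/+ and 1205 ± 170 (SD, n = 5) in KI/+ kidneys, which is 66.4% of the +/+ level. The sums did not overlap, with +/+ mice between 1576 and 2079 and KI/+ mice between 1027 and 1463. The highest KI/+ sum was that of replicate 5, and without it the difference of the means moved from -609.9 to -674.6.

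**Figure D2:**
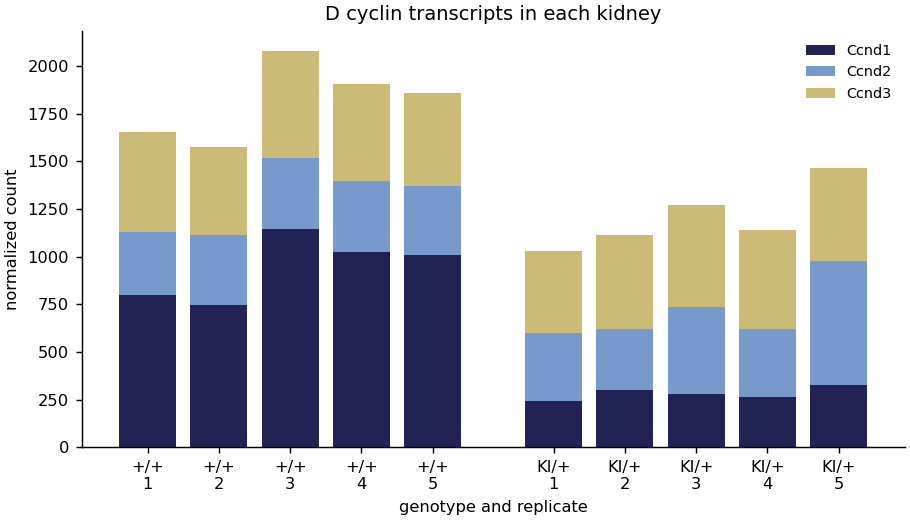
Stacked normalized counts (vertical axis, starting at 0) of Ccnd1, Ccnd2 and Ccnd3 in each of the 10 kidneys, ordered by genotype and replicate. The Ccnd1 segment is the largest in every +/+ mouse and the smallest in every KI/+ mouse, and the whole bar of each KI/+ mouse is shorter than that of any +/+ mouse.

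The kinases that D cyclins activate showed no fall of that size. Cdk4 had 141, 117, 105, 109 and 128 normalized counts in +/+ mice. In KI/+ mice it had 121, 107, 126, 115 and 122, within the +/+ range in all 5. The means were 120 ± 14.3 (SD, n = 5) and 118 ± 7.52 (SD, n = 5), with a log2 fold change of -0.02 (standard error 0.12, 95% interval -0.26 to 0.23). Cdk6 had 349, 415, 401, 373 and 354 in +/+ mice and 399, 505, 499, 413 and 504 in KI/+ mice. All 5 KI/+ mice lay above the +/+ mean and 3 of them above every +/+ mouse. The means were 379 ± 29.1 (SD, n = 5) and 464 ± 53.2 (SD, n = 5), with a log2 fold change of 0.29 (standard error 0.10, 95% interval 0.08 to 0.49), between 0.26 and 0.34 when each mouse was left out. A broad list of TFEB targets that the study used holds Cdk4 and Cdkn2c.

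Of the inhibitors, p27 is the one that accumulates in quiescent cells. Its gene Cdkn1b had 281, 280, 282, 331 and 394 normalized counts in +/+ mice, and 273, 331, 282, 329 and 248 in KI/+ mice. The values overlapped, with means of 314 ± 49.8 (SD, n = 5) and 293 ± 36.3 (SD, n = 5) and a log2 fold change of -0.10 (standard error 0.12, 95% interval -0.34 to 0.15). Cdkn1c, the imprinted gene of p57 that is best known in the kidney from podocytes, had 183, 205, 262, 215 and 201 in +/+ mice and 201, 218, 198, 270 and 238 in KI/+ mice. Its means were 213 ± 29.6 (SD, n = 5) and 225 ± 29.8 (SD, n = 5), with a log2 fold change of 0.08 (standard error 0.12, 95% interval -0.17 to 0.33), and the ranges overlapped.

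Cdkn2c was the least abundant of the 9 genes, with 8 to 38 reads per library. The +/+ mice had 11.0, 33.8, 9.07, 17.2 and 21.4 normalized counts, and the KI/+ mice 15.2, 8.36, 14.7, 15.8 and 16.5. The +/+ values were the more scattered, and the KI/+ values fell within their range except for replicate 2. The means were 18.5 ± 9.87 (SD, n = 5) and 14.1 ± 3.29 (SD, n = 5), and the log2 fold change of -0.26 had a standard error of 0.33 and a 95% interval from -0.95 to 0.44. Without +/+ replicate 2, the highest mouse, it was -0.01. At this depth a moderate difference in Cdkn2c was not detectable.

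Rb1 encodes the protein that the cyclin D kinases phosphorylate. The +/+ mice had 85.8, 112, 110, 85.8 and 114 normalized counts and the KI/+ mice 93.9, 85.5, 97.7, 90.9 and 94.4. The +/+ mice fell into a lower pair and a higher group of 3, and the KI/+ mice lay between 85.5 and 97.7, below that higher group. The means were 102 ± 14.5 (SD, n = 5) and 92.5 ± 4.60 (SD, n = 5), with a log2 fold change of -0.12 (standard error 0.13, 95% interval -0.39 to 0.14).

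Across the 9 genes, 1 (Ccnd1, lower in KI/+) passed a limma adjusted p of 0.05 and 8 did not, where 3.69% of all genes tested passed, 1.67% as higher and 2.02% as lower in KI/+. Ccnd1 was also the single gene of the 9 whose genotypes did not overlap, as was found for 5.0% of all genes. Because the genes were chosen with Ccnd1 in view, nothing is read from these counts. The median log2 fold change of the 9 genes was -0.05, beside 0.00 for all genes tested, with 3 positive and 6 negative values. The middle 95% of all genes lay between -0.63 and 0.57. The other 8 genes were inside these limits.

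**Figure D3:**
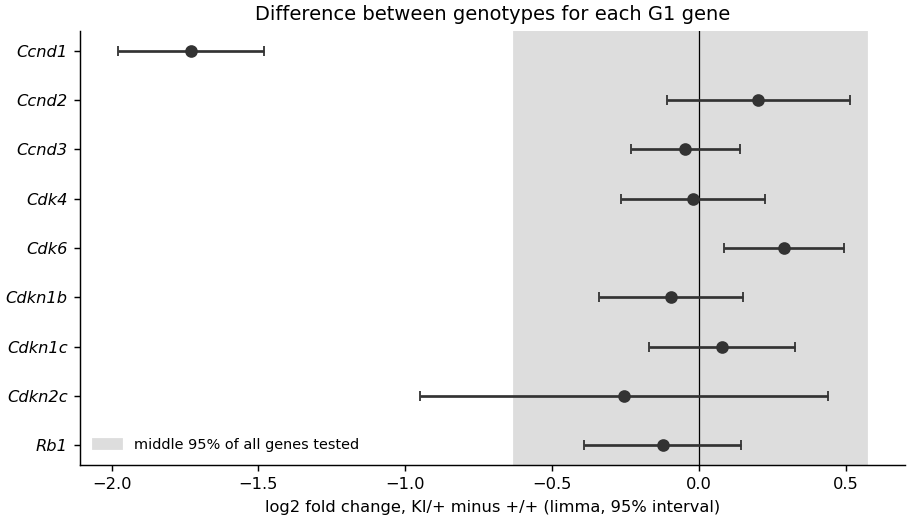
Log2 fold change of each G1 gene, KI/+ minus +/+ (horizontal axis), with the 95% interval from limma, and in grey the span that holds the middle 95% of all 13197 genes tested, from -0.63 to 0.57. Ccnd1, at -1.73, lies outside that span, and the interval of Cdk6, from 0.08 to 0.49, is the other one that does not cross 0.

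Further cell cycle genes were read from 6 lists that hold none of the 10 genes, with 294 genes in all, of which 238 were in the table and 228 were tested. They were compared in the same limma fit over all genes, and 3 of the 228 (1.32%) passed, 1 higher and 2 lower in KI/+. Of all genes tested 3.69% passed, 1.67% as higher and 2.02% as lower. The counts of each list stand beside these shares.

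Among 36 tested partners of the G1/S step, which are further cyclins, Cdks, inhibitors, pocket proteins, E2F factors and ubiquitin ligase subunits, Skp1 rose and 35 genes did not pass. Skp1 is the adaptor of SCF ubiquitin ligases, which degrade cyclin E, p27 and other cell cycle proteins. Its normalized counts were 2055, 2017, 1657, 1671 and 1735 in +/+ mice and 2451, 2255, 2331, 2078 and 2358 in KI/+ mice, without overlap. The log2 fold change was 0.33 (SE 0.08, limma adjusted p = 0.0349), and it passed in 3 of the 10 fits that each left out 1 mouse. Those were the fits without +/+ replicate 1, +/+ replicate 2 or KI/+ replicate 4. The median of the list was 0.04, and at an unadjusted p under 0.05, 2 genes were higher and 4 lower.

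Genes of this list that stand next to Ccnd1 in the pathway were not called. Ccne2, an E cyclin, had 9.73 ± 3.36 (SD, n = 5) normalized counts in +/+ and 18.3 ± 7.17 (SD, n = 5) in KI/+ kidneys, and the change was 0.84 on the log2 scale (SE 0.32, limma adjusted p = 0.185). Cdk2, the partner of E cyclins, had 37.7 ± 5.80 (SD, n = 5) and 34.7 ± 11.96 (SD, n = 5), and the change was -0.17 on the log2 scale (limma adjusted p = 0.799). Cdkn1a, which encodes p21 and is induced by p53, had 66.9 ± 17.4 (SD, n = 5) and 72.0 ± 25.5 (SD, n = 5), and the change was 0.07 on the log2 scale (limma adjusted p = 0.929) and -0.09 without KI/+ replicate 5. E2f1, at 9 to 38 reads per library, had 15.2 ± 5.52 (SD, n = 5) and 21.9 ± 10.9 (SD, n = 5). Its change was 0.45 on the log2 scale (limma adjusted p = 0.599). At these depths a moderate difference in Ccne2 or E2f1 can be missed. For all 4 genes the values of the genotypes overlapped, and Cdkn2a was not analysed here.

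Downstream of Rb, 0 of 37 tested genes of S phase and E2F targets were called by limma, edgeR or DESeq2, and at an unadjusted limma p under 0.05, 3 were higher and 2 lower. Their median log2 fold change was -0.02, with 16 positive and 21 negative values between -0.72 and 0.46. Pcna, the sliding clamp of DNA replication, had 150 ± 15.1 (SD, n = 5) normalized counts in +/+ and 163 ± 18.96 (SD, n = 5) in KI/+ kidneys, and the change was 0.12 on the log2 scale (limma adjusted p = 0.695). Of the list of 40 genes of G2/M and mitosis, 23 were in the table and 19 were tested, and limma and edgeR called 0 of them and DESeq2 1, Pttg1. Their median was -0.23, with 4 positive and 15 negative values, and 1 gene was lower at an unadjusted p under 0.05. Mki67, the gene of the proliferation marker Ki-67, had between 3.22 and 19.3 normalized counts in +/+ mice and between 2.10 and 9.88 in 4 KI/+ mice, and KI/+ replicate 5 had 36.0. Its log2 fold change was -0.34 (SE 0.55, limma adjusted p = 0.838), and -0.84 without that mouse (limma adjusted p = 0.477). Several mitotic transcripts, Mki67 among them, were close to the lower limit of what these libraries measure, and Ccnb1 was not analysed here.

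Of 63 tested genes of mitogen inputs to cyclin D, which are growth factors, MAPK components and the AP-1, ETS and Wnt factors, 2 fell and 61 did not pass. Egf encodes the precursor of epidermal growth factor, which distal tubules make in large amounts. It had normalized counts of 3019, 3479, 2569, 2743 and 2868 in +/+ mice and 1849, 1952, 1326, 1565 and 782 in KI/+ mice, without overlap. Its log2 fold change was -1.04 (SE 0.18, limma adjusted p = 0.00207). Dusp6, a phosphatase of ERK that ERK signalling itself induces, had 238, 264, 218, 218 and 259 in +/+ mice and 174, 173, 109, 162 and 155 in KI/+ mice, also without overlap. Its log2 fold change was -0.64 (SE 0.13, limma adjusted p = 0.00624). Both passed in all 10 fits that each left out 1 mouse. With the second run of codes (53 to 66) alone, Egf passed (limma adjusted p = 0.0262) and Dusp6 did not, with a log2 fold change of -0.64 and an adjusted p of 0.0525 by limma. Without KI/+ replicate 5, the lowest Egf value, the log2 fold change of Egf was -0.82. Egf is also a marker of the distal convoluted tubule, and 7 of the 8 tested markers of that segment, Egf among them, were lower in KI/+ kidneys. The part of that segment in the fall of Egf was not tested. Gsk3b, whose kinase marks cyclin D1 for degradation, had 701 ± 119 (SD, n = 5) and 697 ± 85.7 (SD, n = 5), and the change was -0.00 on the log2 scale (limma adjusted p = 0.994). Ctnnb1, which encodes beta-catenin, had 2678 ± 162 (SD, n = 5) and 2417 ± 154 (SD, n = 5), and the change was -0.15 on the log2 scale (limma adjusted p = 0.375). The median of the list was -0.02, at an unadjusted p under 0.05 there were 3 higher and 7 lower genes, and Myc was not analysed here.

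Of 41 tested cyclins and Cdks outside the G1 set, limma and edgeR called 0 and DESeq2 1, Cntd1, with 2 higher and 4 lower at an unadjusted limma p under 0.05 and a median of -0.04. Ccng1, a cyclin induced by p53, had 835 ± 91.3 (SD, n = 5) in +/+ and 1005 ± 126 (SD, n = 5) in KI/+ kidneys, and the change was 0.27 on the log2 scale (limma adjusted p = 0.175). Of 32 tested genes of growth arrest and senescence, limma and edgeR called 0 and DESeq2 1, Dyrk1a, whose kinase can phosphorylate cyclin D1, with 4 higher and 6 lower at an unadjusted limma p under 0.05 and a median of -0.01. Trp53 was in the table with 10.1 ± 1.11 (SD, n = 5) and 8.57 ± 2.62 (SD, n = 5) normalized counts and was too low to be tested.

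**Figure D4:**
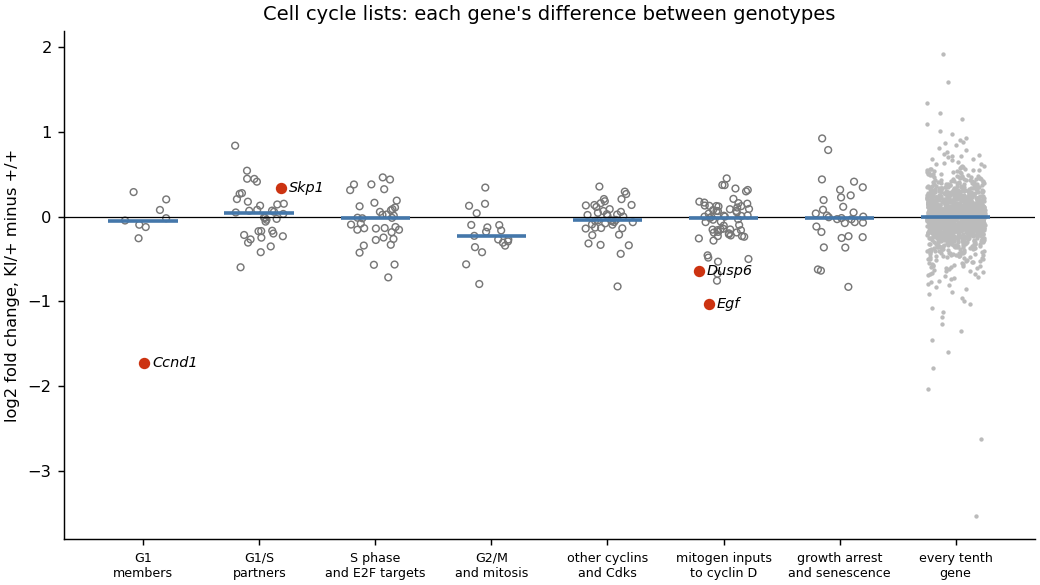
Log2 fold change, KI/+ minus +/+ (vertical axis), of each tested gene in the G1 set, in the 6 cell cycle lists and in a regular subset of all genes tested (grey), with medians as blue lines and genes past a limma adjusted p of 0.05 filled red and named (the subset is not marked). Of the lists, Skp1 at 0.33, Dusp6 at -0.64 and Egf at -1.04 are the named genes, and each median lies between -0.23 and 0.04.

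Because a whole kidney mixes cell types, marker genes of its segments were read beside Ccnd1. Their counts stand beside the 3.69% of all genes tested that limma called, 1.67% as higher and 2.02% as lower in KI/+. Markers of the distal convoluted tubule, the segment that reabsorbs sodium chloride through the thiazide-sensitive cotransporter, fell together with Ccnd1. Of 8 tested markers 7 were lower, among them Slc12a3, the cotransporter itself (log2 fold change -1.20), the calcium-binding protein Pvalb (-3.06) and the magnesium channel Trpm6 (-1.84). Their summed level was between 10188 and 11419.5 in +/+ and between 5522 and 6696 in KI/+ mice, at 58.2% of the +/+ level and at 60.1% without KI/+ replicate 5. Of 6 tested markers of the thick ascending limb, 3 were lower, among them Umod (-0.999) and Ptger3 (-1.63), and Cldn16 was higher (0.82). Their sum was between 28857 and 37720 in +/+ and between 20281 and 21777 in 4 KI/+ mice, and KI/+ replicate 5 was lower, at 13299.5. The mean sum of KI/+ mice was at 60.4% of the +/+ level, and at 65.1% without that mouse. No marker of either segment was at 0 in any mouse. On the linear scale, the level of Ccnd1 relative to +/+ (29.8%) was lower than that of either sum (58.2% and 60.4%). The sums are weighted towards their most abundant markers. Of the markers named above, Pvalb (-3.06) and Trpm6 (-1.84) had lower log2 fold changes than Ccnd1 (-1.73). Slc12a3, Umod, Ptger3 and Cldn16 did not. The part of these segments in the difference of Ccnd1 was not tested.

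**Figure D5:**
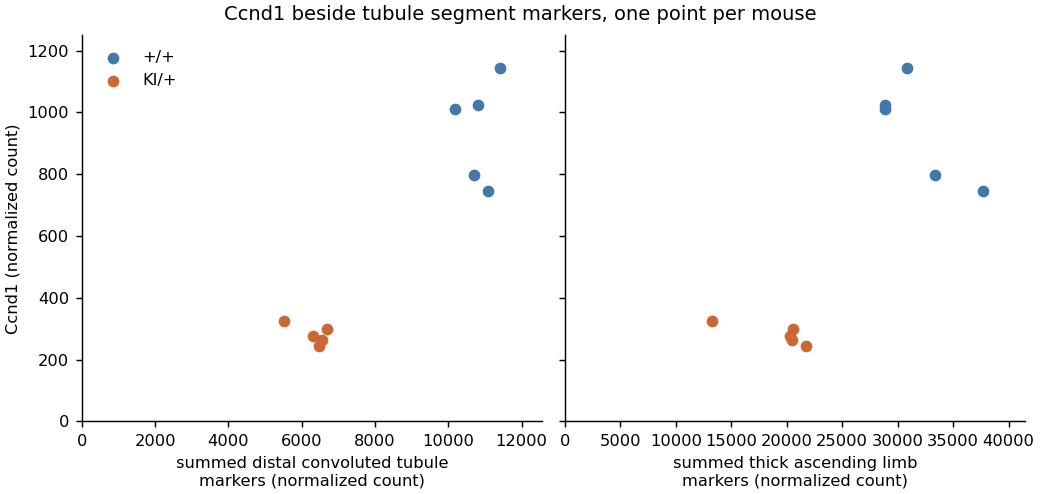
Ccnd1 (vertical axis) against the summed markers of the distal convoluted tubule (left) and of the thick ascending limb (right), all in normalized counts with axes from 0, with 1 point per mouse, blue for +/+ and orange for KI/+. Genotypes lie apart on every axis, with Ccnd1 at or below 325 in KI/+ and at or above 745 in +/+ mice, and KI/+ replicate 5 has the lowest sum of both segments and the highest Ccnd1 of its genotype.

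Other markers moved less uniformly, and limma called 3.69% of all genes tested. Of 14 proximal tubule markers 2 were higher and 2 lower, and of 10 intercalated cell markers 3 were lower, by limma, edgeR and DESeq2 alike. Of 11 markers of the connecting tubule and principal cell, limma called 2 higher, edgeR 1 and DESeq2 5. Without KI/+ replicate 5 limma called 1 higher and 1 lower, and without another mouse from 1 to 3 higher. Of 11 podocyte markers 2 were higher by each tool. In limma, 0 of them passed without the trend, or without KI/+ replicate 1, KI/+ replicate 5 or +/+ replicate 5. Limma, edgeR and DESeq2 called 0 of the 10 endothelial, 9 stromal and 10 macrophage and leukocyte markers, with 2, 1 and 3 genes at an unadjusted limma p under 0.05. Of 9 markers of tubular injury, Lcn2 (log2 fold change 1.67) and Krt8 (0.51) were higher and Spp1 (-0.53) was lower in KI/+. Lcn2, an early marker of damaged tubules, had from 7.50 to 10.04 normalized counts in +/+ mice, from 18.8 to 27.5 in 4 KI/+ mice and 73.0 in KI/+ replicate 5, without which its log2 fold change was 1.35. Spp1 did not pass in limma among library codes ending in 53 to 66 alone (limma adjusted p = 0.0892) or without the trend. It was also lost in the fits without +/+ replicate 1, 2, 4 or 5 or KI/+ replicate 4. KI/+ replicate 5 had the highest Ccnd2, Mki67 and stromal marker values of its genotype. Its stromal sum was 3339, against 1407 to 1757 in the other KI/+ mice. Without this mouse, the log2 fold change of Ccnd1 was -1.78, and the part of injury in the other values was not tested.

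The genes whose log2 values were most like those of Ccnd1 over the 10 mice, among 9135 genes whose mean was 50 normalized counts or more, were Klhl3 (Pearson r = 0.987), Uap1l1 (0.983), Egfl6 (0.982), Pde1a (0.979) and F5 (0.975). All of them fell, and the 10 points lie in 2 groups set by genotype, so that r is a description of that gap. Klhl3, an adaptor of a ubiquitin ligase that degrades WNK kinases in the distal tubule, had 473 ± 52.7 (SD, n = 5) in +/+ and 231 ± 16.6 (SD, n = 5) in KI/+ kidneys. Its log2 fold change was -1.03. F5, which encodes coagulation factor V, had 182 ± 31.4 (SD, n = 5) and 17.7 ± 6.73 (SD, n = 5), with a log2 fold change of -3.34. Both genes were picked for their likeness to Ccnd1, so these differences are a description and carry no test. Once the mean of each genotype had been subtracted, the most alike genes were others, namely Zfp612 (r = 0.950), Taok1 (0.945), Lzts2 (0.945), Ppara (0.940) and Lpcat3 (0.937). Of these, Ppara, the nuclear receptor that controls fatty acid oxidation, had 272 ± 95.4 (SD, n = 5) and 254 ± 51.9 (SD, n = 5) normalized counts, and none of the 5 was called between genotypes. Klhl3 kept an r of 0.738 with Ccnd1 on this second measure. In each genotype, Klhl3, like Ccnd1, was lowest in the mice of the first run of library codes. The part of the runs in this r was not tested. The genes of both measures were picked as the highest of 9135 over 10 mice, so their r values carry no test.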

How the data were processed

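Kidney RNA of 5 +/+ and 5 KI/+ mice was sequenced, 1 library a mouse, and the labels give the genotype. The authors aligned QuantSeq 3′ reads to GRCm39 with TopHat2 2.0.10 (multiple hits allowed), counted them by strand with HTSeq 0.6.1 on GENCODE, and deposited a signal per gene, a read count over the size factor of its library. With these factors undone, 100% of values were whole reads (tolerance 0.01). The lowest mean of a gene was 5.64, so rarer transcripts were not analysed here.

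Values were tested as log2(value + 1), which understates changes of low genes, with limma 3.58.1 in R 4.3.3 (trend, two-sided, no covariate) in genes at 10 normalized counts or more in 5 mice or more, at a Benjamini-Hochberg adjusted p of 0.05. P values set the difference between genotypes against the spread between these mice, which limma moderates across genes. edgeR 4.0.16 and DESeq2 1.42.0 were run on recovered reads as alternatives, beside other pseudocounts, filters, scalings, a covariate for the runs of codes, and leaving out each mouse. The limma, edgeR and DESeq2 fits of the genotypes, without a covariate, were tested on simulated counts with known changes.

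The G1 genes, the 6 cell cycle lists and the marker lists (proximal tubule, thick ascending limb, distal convoluted tubule, connecting tubule and principal cell, intercalated cell, podocyte, endothelium, stroma, macrophage and leukocyte, tubular injury) were chosen with earlier results of these data known. Named are the G1 genes, called genes of the cell cycle lists, 14 genes named whatever their values, at most 3 called markers a list, and the 5 genes most like Ccnd1 by each measure. Pttg1, Cntd1 and Dyrk1a, and genes named for an alternative setting, were chosen after their values were seen. Near-identical gene copies can share reads.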

Additional observations from a re-analysis of the deposited data

Results flagged for a closer look

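In each genotype of 5 mice, the highest and lowest mouse were compared with the others by the gap to the nearest mouse over the whole range, against Dixon's 95% critical value of 0.71, for the G1 genes, the named genes of the cell cycle lists, the summed D cyclins and the marker sums. Of 68 groups checked, 4 held such a mouse, and chance gives about 1 in 20.

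Cdkn2c in KI/+ replicate 2 had 8.36 normalized counts, from 9 reads, where the other KI/+ mice had between 14.7 and 16.5. KI/+ replicate 5 accounted for the other 3. It had 36.0 normalized counts of Mki67, where the other KI/+ mice had between 2.10 and 9.88. Its summed thick ascending limb markers were 13299.5, below the 20281 to 21777 of the others, and its summed stromal markers were 3339, above their 1407 to 1757.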

How the results depend on the processing

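Ccnd1 was lower in all 12 other settings (log2 fold change -1.86 to -1.72) and in all 10 fits without 1 mouse (-1.81 to -1.66). In each of them 1 of the G1 genes, Ccnd1, was called. The genes were chosen with Ccnd1 in view, so the calls of G1 genes are a description and carry no test. The summed D cyclin difference was between -698.2 and -619.3 under the 4 other settings run for it (TMM, quantile normalization, the covariate, and codes ending in 53 to 66 alone) and between -674.6 and -543.8 without 1 mouse. No setting moved another G1 gene by more than the spread between mice, and Cdk6 was called in none.

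The lists depended more on the setting, and the cause was not tested. For the G1/S partners, 1 gene was called (Skp1), and 0 with quantile normalization, 0 without the trend and 3 with the covariate for library codes (Cdkn2d, Skp1, Tfdp2). For S phase and E2F targets, 0 became 1 without the trend and 1 with the covariate (Rrm1). For G2/M and mitosis, 0 became 1 with quantile normalization and 1 with DESeq2 (Pttg1). For other cyclins and Cdks, 0 became 1 with DESeq2 (Cntd1) and 2 with the covariate (Ccng1, Cdkl1). For mitogen inputs, 2 became 6 with the covariate (Braf, Dusp6, Egf, Etv1, Jund, Sp1), and the 2 called among codes ending in 53 to 66 alone were Egf and Etv1, where Dusp6 had a limma adjusted p of 0.0525. Over the 12 other settings, the adjusted p (limma, edgeR or DESeq2) was between 1.62e-04 and 0.0525 for Dusp6 and between 1.08e-05 and 0.0376 for Egf. For growth arrest and senescence, 0 became 1 with DESeq2 (Dyrk1a) and 3 with the covariate (Dyrk1a, Gdf15, Klf9).

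Without 1 mouse, the counts ranged from 0 to 1 for G1/S partners (Skp1 was lost in 7 of 10 fits, those without +/+ replicate 3, 4 or 5 or KI/+ replicate 1, 2, 3 or 5), from 0 to 1 for G2/M (Pttg1, without KI/+ replicate 3), from 0 to 0 for S phase and for other cyclins, from 2 to 3 for mitogen inputs (Map2k1, without +/+ replicate 3) and from 0 to 2 for growth arrest (Dyrk1a and Gdf15 without +/+ replicate 1, Igfbp3 and Txnip without KI/+ replicate 2).

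Replicate numbers only name the mice, so no paired analysis was possible because no label pairs mice across genotypes. Depth limits Cdkn2c (8 to 38 reads), Ccne2 (5 to 31 reads), E2f1 (9 to 38 reads), Mki67 and several other mitotic transcripts. The sex of each mouse was not used here, and the library codes are not stated to be batches.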
